A study of Homo sapiens with 10 samples.

Results

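The 10 genes described here encode chaperones, co-chaperones, folding and degradation factors of the endoplasmic reticulum (ER) and a transcription factor that the unfolded protein response acts through. They are *HSPA5*, *HSP90B1*, *CALR*, *PDIA4*, *SDF2L1*, *DNAJB9*, *DNAJC3*, *HERPUD1*, *EDEM1* and *XBP1*. They were chosen by name, when earlier results of these data were known. All 10 were found in both tables of the series, among 13029 genes in the *ZMAT3* experiment and 17642 genes in the siRNA experiment. Both experiments used HCT116, a human colorectal cancer cell line, and the study describes no drug treatment for these libraries. The *ZMAT3* experiment has 3 *ZMAT3*-WT and 3 *ZMAT3*-KO libraries, and the siRNA experiment has 2 libraries of cells given a control siRNA (siCTRL) and 2 of cells given a pool of 4 siRNAs against p53 (sip53), each for 72 hours. *ZMAT3* encodes an RNA-binding zinc finger protein that p53 induces, and the comparisons ask which RNAs depend on ZMAT3 and on p53. *ZMAT3*-KO cells carry a small deletion, made by CRISPR, in the intron of *ZMAT3* that p53 binds, and the study's knockout experiments used a single clone, so an effect of *ZMAT3* loss and a difference between clones cannot be told apart. The labels of the *ZMAT3* libraries also carry the abbreviations EV and unt, which were not interpreted.

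The unfolded protein response is the signalling that follows when unfolded proteins collect in the ER. In mammals it starts from the membrane sensors IRE1 (encoded by *ERN1*), PERK (encoded by *EIF2AK3*) and ATF6, which the chaperone BiP holds back in unstressed cells. IRE1 splices the *XBP1* mRNA, ATF6 is cut to release a transcription factor, and PERK slows translation and favours that of *ATF4*. XBP1 and ATF6 raise the genes for folding and degradation in the ER, many of them through a promoter motif called the ER stress response element (ERSE).

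The ERSE sequences are shown because the element is a known promoter feature of this response. The genes were chosen as members of the response, so their matches are a description and not an independent test. RefSeq promoter windows (GRCh38.p14, 250 bases before to 50 bases after a start site) were matched for 10 of the 10 genes, with 12 windows in all. Both strands were searched for ERSE (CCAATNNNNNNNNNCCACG) and for ERSE-II (ATTGGNCCACG), where N is any base. In the sequences, the capitals mark the fixed bases of the element, 10 bases flank it on each side, and each is written 5′ to 3′ along the strand of its gene.

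HSPA5 ERSE, chr9:125241381-125241419: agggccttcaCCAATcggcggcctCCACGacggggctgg
HSP90B1 distal ERSE, chr12:103930206-103930244: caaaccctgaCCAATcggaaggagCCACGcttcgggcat
HSP90B1 proximal ERSE, chr12:103930311-103930349: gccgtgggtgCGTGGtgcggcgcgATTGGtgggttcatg
CALR ERSE, chr19:12938374-12938412: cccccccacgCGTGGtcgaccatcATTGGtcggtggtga
XBP1 ERSE, chr22:28800593-28800631: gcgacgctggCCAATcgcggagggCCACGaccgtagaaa
HERPUD1 ERSE-II, chr16:56932015-56932045: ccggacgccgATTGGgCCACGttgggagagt
SDF2L1 ERSE-II, chr22:21642104-21642134: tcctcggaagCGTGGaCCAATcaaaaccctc

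The genes *HSPA5* and *XBP1* lie on the minus strand and the other genes listed on the plus strand. ERSE was found in 4 of the 10 genes, against 25 of 27305 genes with a window (0.0916%). ERSE-II was found in 2 of the 10 genes, against 19 of 27305 genes (0.0696%). Either element was therefore present in 6 of the 10 genes, against 44 of 27305 genes with a window (0.161%). The proximal *HSP90B1* element and those of *CALR* and *SDF2L1* read in reverse. The first base of an element lay from -225 (*CALR*) to -52 (*XBP1*) relative to the start site. No exact match was found in the windows of *PDIA4*, *DNAJB9*, *DNAJC3* and *EDEM1*, which says only that these letters are not in those windows. The ATF4 element TGATGNAAT was in 0 of the 10 genes, against 333 of 27305 genes (1.22%). Of a list of 20 other ER chaperone and folding enzyme genes with a window, 5 held either ERSE form, and these were, named after the search, *HYOU1*, *CANX*, *PDIA6*, *ERO1B* and *CRELD2*. A match is a description of sequence, and binding was not measured here.

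**Figure D1:**
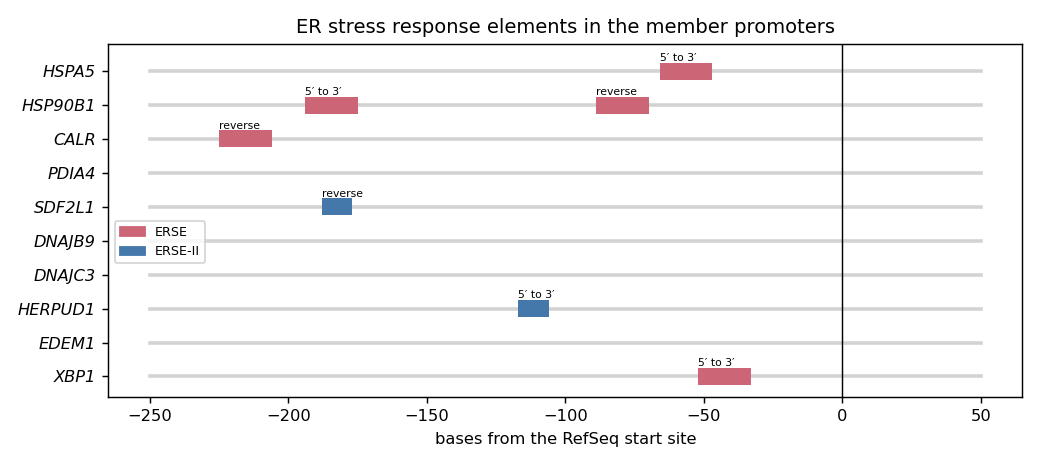
Position of each exact ERSE (red) and ERSE-II (blue) match in the promoter windows of the 10 genes, on an axis of bases from the RefSeq start site (vertical line), with the strand of the match written above it as along the gene (5′ to 3′) or reverse. Elements appear in 6 of the 10 genes, with a pair in *HSP90B1*.

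The deposited values of the *ZMAT3* experiment are log2 CPM, that is read counts scaled to the library total, and the 6 libraries share 1 distribution, with a lowest value of -6.62 and a highest of 13.51 in each. The values of the siRNA experiment were taken to be FPKM, in which fragments are divided by the length of the transcript and by the size of the library, with sums per library from 708634 to 829230. Neither table holds read counts, so the sequencing depth is unknown. *ZMAT3* matched the labels, at 5.00, 5.20 and 5.26 log2 CPM in *ZMAT3*-WT and at 2.25, 2.34 and 2.20 in *ZMAT3*-KO libraries. *CDKN1A*, the p53 target that encodes p21, was at 525 and 481 FPKM in siCTRL and at 34.2 and 37.7 FPKM in sip53 libraries. Of the 6 colorectal epithelial markers in the *ZMAT3* table, 3 fell in *ZMAT3*-KO and 0 rose, with a median log2 fold change of -0.45. Those that fell were the keratins *KRT8* (-0.94), *KRT18* (-0.82) and *KRT19* (-1.75), while *EPCAM* was at 8.54 log2 CPM in *ZMAT3*-WT and 8.55 in *ZMAT3*-KO libraries. Of 6 leukocyte and 6 fibroblast markers listed, 3 and 2 were in the siRNA table, with sums per library of 3.93 to 27.7 FPKM and 4.22 to 7.07 FPKM, and 1 of each was in the *ZMAT3* table. In that table *CD68* was higher in *ZMAT3*-KO, with means of 0.84 ± 0.22 and 1.82 ± 0.14 log2 CPM (SD, n = 3) and a limma adjusted p of 4.14e-05, as was *COL1A1* by 0.16 on the log2 scale (limma adjusted p = 0.0269). In the siRNA table *CD68*, a lysosomal protein of macrophages, was at 7.97 and 2.06 FPKM in siCTRL and 11.6 and 26.9 FPKM in sip53. The leukocyte marker *LYZ* went the other way, from 2.86 and 1.83 to 1.74 and 0.74 FPKM, also without overlap. Of 6 colorectal epithelial markers tested there, limma called 1 higher and 0 lower at the study's unadjusted threshold. The higher marker was *EPCAM* (log2 fold change 0.60, limma unadjusted p = 0.0234, adjusted p = 0.247). The part of these cell type markers in the results of either experiment was not tested. In bulk libraries, fewer cells with a transcript and less of it per cell cannot be told apart.

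Within the *ZMAT3* experiment, *HSPA5*, *HSP90B1*, *SDF2L1* and *PDIA4* were slightly lower and *HERPUD1*, *EDEM1* and *XBP1* slightly higher in *ZMAT3*-KO cells, while *CALR*, *DNAJB9* and *DNAJC3* did not pass the test. Here "fell" and "rose" mean a limma adjusted p under 0.05 (two-sided, Benjamini-Hochberg over 13029 genes). By that test 4 of the 10 genes fell and 3 rose. Across all genes tested 58.8% passed, 28.7% as higher and 30.1% as lower, so a count of 7 in 10 is near the share among all genes. With the 1.5-fold threshold of the study added, limma called 0 of the 10 genes, against 8.96% of all genes. At an unadjusted p under 0.05 it was 7 of the 10, against 4014 higher and 4215 lower of all 13029 genes. The groups did not overlap in 7 of the 10 genes, against 64.2% of all genes. The median log2 fold change was -0.032 over the 10 genes and -0.0052 over all genes, and the median absolute log2 fold change was 0.15 and 0.17.

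*HSPA5* encodes BiP, the Hsp70 chaperone of the ER lumen that also restrains the sensors. The gene lies at chr9:125234853-125241382 on the minus strand (hg38, GENCODE release 44, as for all gene positions here). It was at 10.21, 10.25 and 10.23 log2 CPM in *ZMAT3*-WT libraries and at 10.05, 10.10 and 10.05 in *ZMAT3*-KO libraries. Each *ZMAT3*-KO library was below each *ZMAT3*-WT library, and the means were 10.23 ± 0.024 and 10.07 ± 0.028 (SD, n = 3). This is 0.892-fold, or -0.16 on the log2 scale (SE 0.026, limma adjusted p = 0.000171). Left out in turn, the libraries gave values from -0.18 to -0.15.

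*HSP90B1* encodes GRP94, the Hsp90 chaperone of the ER, whose clients include integrins and Toll-like receptors (chr12:103930107-103953931, plus strand). Its log2 CPM was 10.14, 10.17 and 10.18 in *ZMAT3*-WT libraries and 9.98, 10.04 and 9.99 in *ZMAT3*-KO libraries, with no overlap. The fold change was 0.896, close to that of *HSPA5* (log2 fold change -0.16, SE 0.026, limma adjusted p = 0.000226). Processed pseudogenes of *HSPA5* and *HSP90B1* are known, and how their reads were divided between copies was not examined.

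*CALR* encodes calreticulin, the calcium-binding lectin chaperone that holds newly made glycoproteins (chr19:12938578-12944489, plus strand). In contrast to the pair above, its groups overlapped, with 10.25, 10.22 and 10.25 log2 CPM in *ZMAT3*-WT and 10.20, 10.22 and 10.20 in *ZMAT3*-KO libraries. The log2 fold change was -0.034 (95% interval -0.087 to 0.020, limma adjusted p = 0.258). *PDIA4* encodes ERp72, a protein disulfide isomerase that forms and rearranges disulfide bonds (chr7:149003062-149028662, minus strand). Its log2 CPM was 8.45, 8.44 and 8.43 in *ZMAT3*-WT libraries and 8.37, 8.40 and 8.33 in *ZMAT3*-KO libraries, so the groups were apart by a small margin. The log2 fold change was -0.070 (SE 0.028, limma adjusted p = 0.0433), and this call was lost with no variance trend (adjusted p = 0.112). It was also lost without *ZMAT3*-WT replicate 1 (0.0599), 2 (0.0916) or 3 (0.082) and without *ZMAT3*-KO replicate 1 (0.09) or 3 (0.195).

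The co-chaperones did not move alike. *SDF2L1*, whose product binds ERdj3 and keeps clients of BiP from aggregating, is on chromosome 22 (chr22:21642302-21644299, plus strand) and fell the most of the 10 genes. It was at 6.08, 6.05 and 5.98 log2 CPM in *ZMAT3*-WT and at 5.67, 5.64 and 5.70 in *ZMAT3*-KO libraries, a gap wider than the spread of either group. Between means of 6.04 ± 0.051 and 5.67 ± 0.030 (SD, n = 3) lay a log2 fold change of -0.37 (SE 0.036, limma adjusted p = 2.66e-06), or 0.775-fold. *DNAJB9* encodes ERdj4, a J-domain protein that takes BiP to IRE1 (chr7:108569867-108574850, plus strand). It was at 3.38, 3.57 and 3.41 log2 CPM in *ZMAT3*-WT and at 3.57, 3.66 and 3.49 in *ZMAT3*-KO libraries, and the groups overlapped. Its log2 fold change of 0.12 (95% interval -0.026 to 0.27, limma adjusted p = 0.144) did not pass, although it did without *ZMAT3*-WT replicate 2, the highest *ZMAT3*-WT library (0.18, adjusted p = 0.0471). *DNAJC3* encodes p58IPK, a J-domain protein that binds unfolded chains and is also known as an inhibitor of PERK (chr13:95677139-95794988, plus strand). Its log2 CPM was 6.23, 6.32 and 6.34 in *ZMAT3*-WT and 6.23, 6.30 and 6.27 in *ZMAT3*-KO libraries. The groups overlapped, with a log2 fold change of -0.031 (95% interval -0.11 to 0.048, limma adjusted p = 0.486).

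Both degradation factors rose. *HERPUD1* encodes HERP, a membrane protein with a ubiquitin-like domain that helps assemble the HRD1 complex for ER-associated degradation (chr16:56932142-56944864, plus strand). It was at 5.57, 5.56 and 5.54 log2 CPM in *ZMAT3*-WT libraries and at 5.73, 5.66 and 5.69 in *ZMAT3*-KO libraries. All *ZMAT3*-KO values were above all *ZMAT3*-WT values, and the log2 fold change was 0.14 (SE 0.034, limma adjusted p = 0.00414), or 1.099-fold. *EDEM1* encodes a mannosidase-like protein that trims glycans on misfolded glycoproteins and marks them for degradation (chr3:5187646-5219958, plus strand). Its log2 CPM was 2.07, 2.16 and 2.43 in *ZMAT3*-WT and 2.52, 2.84 and 2.71 in *ZMAT3*-KO libraries. This was the largest rise of the 10 genes, with a log2 fold change of 0.47 (95% interval 0.24 to 0.70, limma adjusted p = 0.00213), or 1.38-fold, and also the widest spread, with SDs of 0.18 and 0.16 (n = 3).

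*XBP1* encodes the transcription factor whose mRNA IRE1 splices (chr22:28794555-28800597, minus strand). It was at 6.24, 6.29 and 6.19 log2 CPM in *ZMAT3*-WT and at 6.48, 6.35 and 6.46 in *ZMAT3*-KO libraries, with no overlap. The log2 fold change was 0.19 (SE 0.040, limma adjusted p = 0.00141), or 1.14-fold. These are values per gene, so the spliced and unspliced forms were counted together and splicing by IRE1 was not measured here.

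Genes with an ERSE or ERSE-II shown above were found on both sides: *HSPA5*, *HSP90B1* and *SDF2L1* fell, *XBP1* and *HERPUD1* rose, and *CALR* did not pass. Added up on the linear scale, the 10 genes summed to 4153, 4192 and 4206 CPM in *ZMAT3*-WT libraries and 3862, 3953 and 3860 CPM in *ZMAT3*-KO libraries. The means of these sums were 4183 ± 27.6 and 3892 ± 53.3 CPM (SD, n = 3), without overlap. No test was made of the sum, and since the libraries share a distribution it is not a share of reads.

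**Figure D2:**
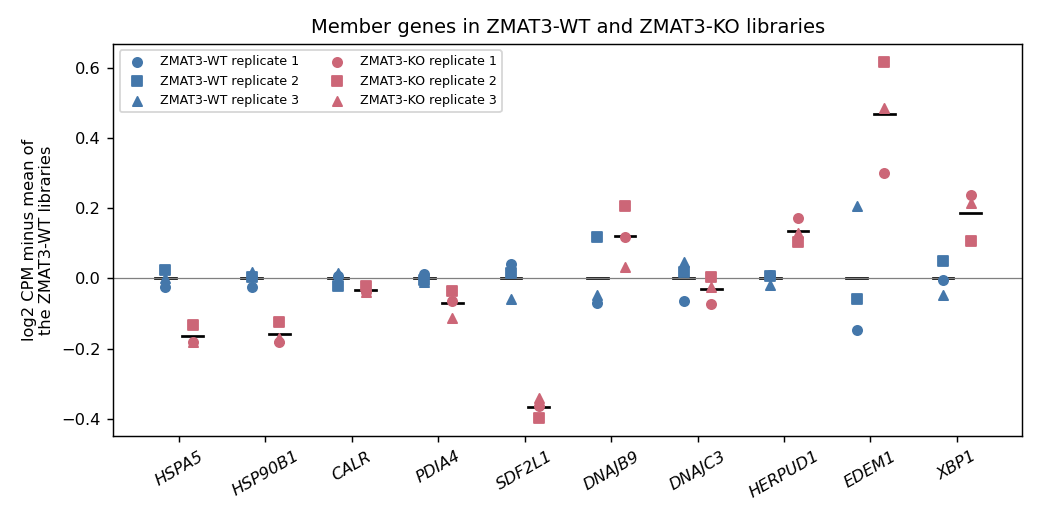
log2 CPM of each gene in each library minus the mean of the 3 *ZMAT3*-WT libraries (blue, *ZMAT3*-WT; red, *ZMAT3*-KO; marker shape, replicate; black lines, group means). *SDF2L1* lies lowest in *ZMAT3*-KO libraries with a mean difference of -0.37, *EDEM1* highest with 0.47, and *CALR*, *DNAJC3* and *DNAJB9* overlap between groups.

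Because FPKM is scaled by transcript length, the siRNA experiment shows how the genes compare in level. In siCTRL libraries the mean FPKM spanned 743-fold from *CALR* to *EDEM1*. *CALR* (784 ± 215 FPKM, SD, n = 2) stood above *HSP90B1* (513 ± 70.5), *HSP90B1* above *HSPA5* (274 ± 6.01) and *HSPA5* above *PDIA4* (174.6 ± 13.2), and at each of these steps the 2 libraries of neighbours did not overlap. *PDIA4* was followed at a distance of 4.28-fold by *XBP1*. Next came *HERPUD1*, *SDF2L1*, *DNAJC3* and *DNAJB9* in that order of means, but each neighbouring pair from *XBP1* to *DNAJB9* overlapped, so their order was not resolved. *EDEM1* was 15.7-fold below *DNAJB9*. In sip53 libraries *CALR* (657 ± 208 FPKM, SD, n = 2) and *HSP90B1* (680 ± 174) overlapped, so the order of these genes was not resolved there. *CALR*, *HSP90B1*, *HSPA5* and *PDIA4* together made up 91.9% to 94.1% of the FPKM of the 10 genes in each library.

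With p53 knockdown, none of the 10 genes passed the threshold. At the study's unadjusted p of 0.05, limma on log2(FPKM + 0.1) called 0 of the 10 genes, against 15.1% of all 14274 genes tested (5.86% higher and 9.28% lower, which is 836 and 1325 genes, or 1120 and 1048 when libraries are centred on the median gene). After Benjamini-Hochberg adjustment it again called 0 of the 10, against 0.273% of all genes. The 2 groups did not overlap in 5 of the 10 genes, against 46.4% of all genes. The log2 fold changes ran from -0.35 (*DNAJC3*) to 0.57 (*HERPUD1*), with 5 above and 5 below 0. Their median was -0.025, against -0.040 over all genes, and the median absolute value was 0.29 against 0.28. With 2 libraries a group the intervals were wide, and a p above the threshold does not show that levels were equal.

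The chaperone with the tightest values was *HSPA5*. It was at 278.2 and 269.7 FPKM in siCTRL and at 279 and 300 FPKM in sip53 libraries, so replicates differed by 1.03-fold and 1.07-fold. The sip53 libraries lay just above the siCTRL libraries, with a log2 fold change of 0.079 (95% interval -0.39 to 0.54, limma adjusted p = 0.881). *HSP90B1* was at 562 and 463 FPKM in siCTRL and at 558 and 803 FPKM in sip53 libraries. The groups overlapped, with sip53 replicate 2 well above the rest, and the log2 fold change was 0.39 (95% interval -0.27 to 1.06, limma adjusted p = 0.541). *CALR* was at 936 and 632 FPKM in siCTRL and at 510.3 and 804 FPKM in sip53 libraries, so each group held a high and a low library. Its log2 fold change of -0.26 (95% interval -1.09 to 0.56, limma adjusted p = 0.763) changed sign without siCTRL replicate 1 or without sip53 replicate 1. The disulfide isomerase *PDIA4* was at 183.9 and 165 FPKM in siCTRL and at 164 and 163 FPKM in sip53 libraries, a log2 fold change of -0.092 (95% interval -0.55 to 0.37, limma adjusted p = 0.856).

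Among the co-chaperones, *SDF2L1*, which fell most in *ZMAT3*-KO cells, was at 15.8 and 33.2 FPKM in siCTRL and at 29.7 and 18.8 FPKM in sip53 libraries. Its siCTRL replicates differed by 2.10-fold, the widest of the 10 genes, and the log2 fold change of 0.042 had a 95% interval of -1.01 to 1.09 (limma adjusted p = 0.977). *DNAJB9* was at 21.5 and 11.7 FPKM in siCTRL and at 11.98 and 13.6 FPKM in sip53 libraries. Its groups overlapped because siCTRL replicate 2 was the lowest of the 4 libraries (log2 fold change -0.31, 95% interval -1.12 to 0.50, limma adjusted p = 0.709). *DNAJC3* was at 18.7 and 20.3 FPKM in siCTRL and at 18.2 and 12.9 FPKM in sip53 libraries, which did not overlap. Its log2 fold change was -0.35 (95% interval -0.92 to 0.23, limma adjusted p = 0.53).

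Of the degradation factors, *HERPUD1* was at 38.5 and 20.0 FPKM in siCTRL and at 33.8 and 50.3 FPKM in sip53 libraries. The groups overlapped, and the log2 fold change was 0.57 (95% interval -0.38 to 1.51, limma adjusted p = 0.534). Without siCTRL replicate 1 it was 1.04 and passed the unadjusted threshold, so that call rested on which siCTRL library was kept. *EDEM1* was at 0.93 FPKM in siCTRL replicate 1, with a siCTRL mean of 1.055 ± 0.177 FPKM (SD, n = 2), and at 1.58 and 1.22 FPKM in sip53 libraries. The groups did not overlap, but the gap between them was smaller than the spread of either. Its log2 fold change was 0.38 (95% interval -0.45 to 1.197, limma adjusted p = 0.649). *XBP1* was at 38.5 and 43.0 FPKM in siCTRL and at 38.4 and 33.5 FPKM in sip53 libraries, a log2 fold change of -0.18 (95% interval -0.65 to 0.28, limma adjusted p = 0.701).

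**Figure D3:**
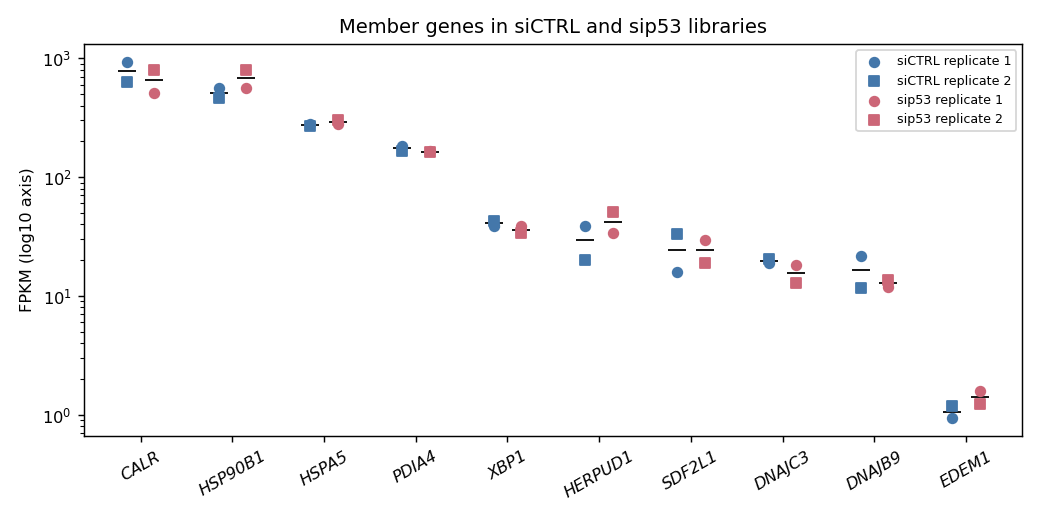
FPKM of each gene in each siRNA library on a log10 axis, ordered by the mean in siCTRL (blue, siCTRL; red, sip53; marker shape, replicate; short black lines, group means). *CALR*, *HSP90B1*, *HSPA5* and *PDIA4* lie above the other genes in all libraries, and *EDEM1* lies below 2 FPKM.

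The siRNA libraries also differed within groups. Summed over the 10 genes, siCTRL replicate 1 and sip53 replicate 2 had 2095 and 2200.0 FPKM, and siCTRL replicate 2 and sip53 replicate 1 had 1659 and 1645 FPKM. Over all genes, siCTRL replicate 1 and sip53 replicate 2 also had the larger sums (790466 and 829230 FPKM, against 708634 and 745042 FPKM). The 10 genes took 0.265% of the sum in each of them, against 0.234% and 0.221% in the other libraries. The libraries with the larger sums were also high for the 22 other ER chaperone and folding enzyme genes (3598 and 3768 FPKM, against 2537 and 2526 FPKM). They were high as well for the listed mitochondrial chaperones and proteases (2523 and 2725 FPKM, against 1976 and 2107 FPKM). Among the 10 genes, *CALR*, *HSP90B1*, *HSPA5*, *HERPUD1* and *DNAJB9* were higher in those libraries than in the other replicate of their group, *SDF2L1*, *DNAJC3*, *XBP1* and *EDEM1* were lower, and *PDIA4* did neither. The listed degradation genes summed to 613 to 664 FPKM, with siCTRL replicate 2 the highest. The part of this difference between libraries in the values of the 10 genes was not tested.

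Set side by side, the intervals differ in width by experiment. For *HSPA5* the 95% interval of the log2 fold change was -0.22 to -0.11 in *ZMAT3*-KO against *ZMAT3*-WT and -0.39 to 0.54 in sip53 against siCTRL. For *SDF2L1* it was -0.45 to -0.29 and -1.01 to 1.09. In both genes the siRNA interval covers the whole of the *ZMAT3* interval, so a change of the same size was not detectable with p53 knockdown. *ZMAT3* itself had a mean of 12.8 FPKM in siCTRL and at 3.16 and 1.97 FPKM in sip53 libraries. The tables were normalized separately, and differences between the experiments were not tested.

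**Figure D4:**
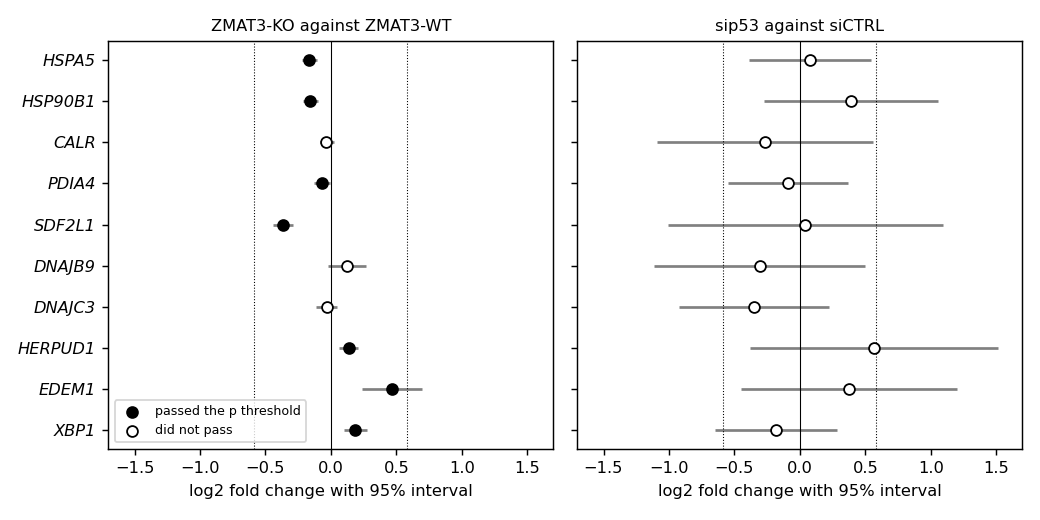
log2 fold change of each gene with its 95% interval from limma in *ZMAT3*-KO against *ZMAT3*-WT (left) and sip53 against siCTRL (right). Filled points passed the threshold of their experiment (adjusted p of 0.05 on the left, unadjusted p of 0.05 on the right) and dotted lines mark 1.5-fold. 7 of 10 points are filled on the left, all inside the dotted lines, and 0 of 10 on the right.

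The other genes of the pathway were taken from 7 lists written from general knowledge, when earlier results of these data were known. The sensors themselves differed: *EIF2AK3* (PERK) rose in *ZMAT3*-KO cells, from 3.64, 3.73 and 3.81 to 4.24, 4.30 and 4.16 log2 CPM, a log2 fold change of 0.51 (SE 0.058, limma adjusted p = 9.54e-06). *ERN1* (IRE1) and *ATF6* had log2 fold changes of -0.086 and -0.053 with overlapping groups (limma adjusted p = 0.268 and 0.202). *ATF4*, which PERK signalling favours at translation, rose by 0.29 on the log2 scale (SE 0.035, limma adjusted p = 1.58e-05). Of the 14 sensor and transcription factor genes, 7 rose and 1 fell, against 28.7% and 30.1% of all genes.

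In the siRNA experiment 0 of those 14 genes passed an unadjusted limma p of 0.05, against 15.1% of all genes. With the adjusted p 0 passed, against 0.273% of all genes. *EIF2AK3* was at 7.37 and 6.66 FPKM in siCTRL and 9.25 and 9.81 FPKM in sip53 libraries, apart but short of the threshold (log2 fold change 0.44, limma adjusted p = 0.342). *ATF4* was at 217 and 162 FPKM in siCTRL and 228 and 342 FPKM in sip53 libraries, also apart (log2 fold change 0.57, limma adjusted p = 0.413). *ERN1* and *ATF6* had log2 fold changes of 0.27 and -0.055 (limma adjusted p = 0.648 and 0.918).

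The genes known to act after PERK and ATF4 had medians above 0 in both experiments. Those of the 10 ER genes were close to 0 (-0.032 and -0.025), as were those of all genes (-0.0052 and -0.040). The siRNA median of the 10 genes became 0.051 when libraries were centred on the median gene. The difference between the lists was not tested. In *ZMAT3*-KO cells 6 of the 9 with values rose and 2 fell, against 28.7% and 30.1% of all genes, with a median log2 fold change of 0.27. *CHAC1*, which encodes an enzyme that degrades glutathione, rose from 1.78, 1.84 and 1.87 to 3.29, 3.24 and 3.23 log2 CPM, a log2 fold change of 1.43 (limma adjusted p = 3.68e-09). *ATF3*, a stress-induced transcription factor, fell from 5.09, 5.01 and 4.90 to 3.85, 3.76 and 3.77 log2 CPM, a log2 fold change of -1.21 (limma adjusted p = 1.73e-09). With p53 knockdown 5 of the 10 passed the unadjusted threshold as higher and 1 as lower, with a median of 0.53, against 5.86% and 9.28% of all genes. *DDIT3*, which encodes the transcription factor CHOP, was at 6.27 and 6.02 FPKM in siCTRL and at 27.1 and 31.8 FPKM in sip53 libraries, with no overlap (log2 fold change 2.24, limma adjusted p = 0.0387). *SESN2*, a stress gene that p53 also induces, went from 15.6 and 15.8 to 6.58 and 6.74 FPKM (log2 fold change -1.22, limma adjusted p = 0.0886, with an unadjusted p under the threshold).

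Other genes of the secretory pathway fell on both sides in most lists. Of 22 other ER chaperones and folding enzymes, 7 rose and 7 fell in *ZMAT3*-KO cells (63.6%, against 58.8% of all genes, with a median log2 fold change of -0.0070), and *DNAJC10*, which encodes the disulfide reductase ERdj5, was the 1 past 1.5-fold. It fell from 6.01, 6.15 and 6.16 to 5.12, 5.21 and 5.15 log2 CPM, a log2 fold change of -0.95 (limma adjusted p = 2.43e-09). With p53 knockdown 1 was higher at the unadjusted p (*ERO1A*, an oxidase for disulfide formation, log2 fold change 0.45) and 2 were lower (*UGGT1*, the glycoprotein folding sensor, -0.54, and *DNAJC10*, -0.54), against 15.1% of all genes in either direction. Of 17 degradation genes with values, 4 rose and 5 fell in *ZMAT3*-KO cells (52.9%, against the same 58.8%), and with p53 knockdown *UBE2G2*, a ubiquitin-conjugating enzyme, was higher (0.73) and *EDEM2* lower (-0.65). Of 22 translocation and export genes, 12 rose and 0 fell in *ZMAT3*-KO cells (54.5%, against 58.8% of all genes in either direction and 28.7% as higher), with a median of 0.11 and none of them past 1.5-fold. With p53 knockdown *LMAN1*, a cargo receptor, was higher (0.55) and *SEC61A1*, a subunit of the translocation channel, lower (-0.72), each at an unadjusted limma p under 0.05.

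Chaperones outside the ER were listed for comparison. Of 13 cytosolic heat shock chaperones with values, 2 rose and 6 fell in *ZMAT3*-KO cells (median -0.038), and of 9 mitochondrial chaperones and proteases 0 rose and 7 fell (median -0.22), each share read beside 28.7% and 30.1% of all genes. In the siRNA experiment limma called 0 of 13 and 0 of 9, against 15.1% of all genes unadjusted and 0.273% adjusted.

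**Figure D5:**
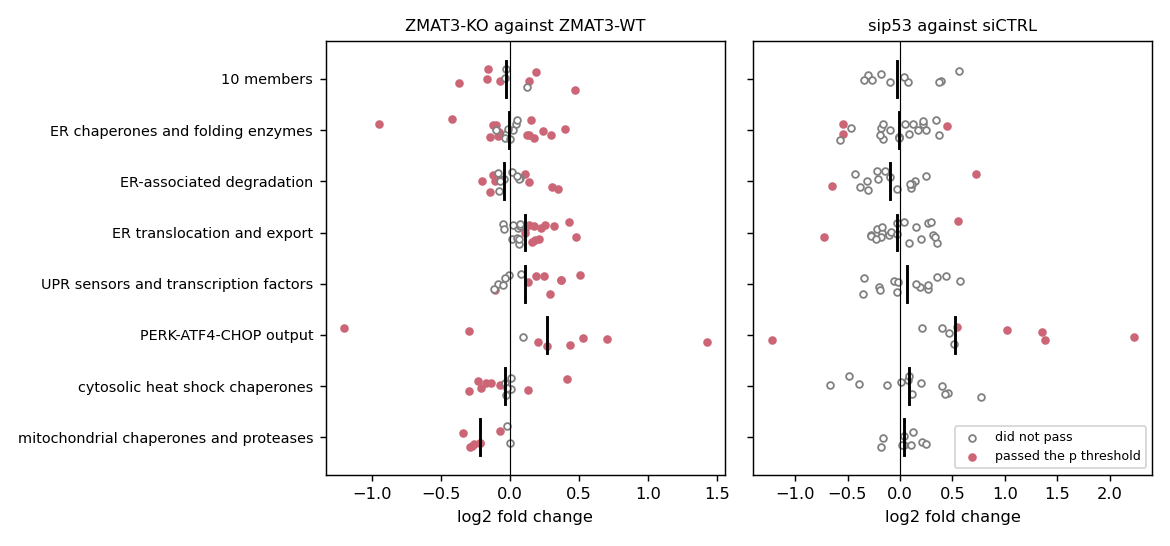
log2 fold change of each gene (points, spread vertically at random within its list) in *ZMAT3*-KO against *ZMAT3*-WT (left) and sip53 against siCTRL (right), for the 10 genes ("10 members") and the 7 lists. Red points passed the threshold of their experiment (adjusted p of 0.05 on the left, unadjusted on the right), and the black bar is the list's median, which is highest for the PERK-ATF4-CHOP list on both sides (0.27 and 0.53).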

How the data were processed

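RNA-seq was analysed from 10 libraries of HCT116 cells, grouped by their labels. The *ZMAT3* libraries were made from poly(A) RNA; the authors used Cutadapt, STAR 2.7.0f on hg38 and RSEM 1.3.1 with GENCODE release 30, and deposited log2 CPM values. The siRNA values that the authors deposited were read as FPKM, since value over the deposited mean signal fell with transcript length (Spearman's rho -0.873 over 684 single-transcript genes) and hardly did once multiplied by length (-0.115). How those libraries were aligned and quantified is not given in the sources used here. The submitters' processing notes also name CASAVA 1.8.2, TopHat2 2.0.8, FastQC 0.11.2, hg19 and hg38, with no role. Both deposited tables hold the authors' own fold changes and p-values, which were not used.

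Each table was fitted separately over all genes with limma 3.58.1 in R 4.3.3 (lmFit, eBayes with a variance trend, two-sided): log2 CPM as deposited, and log2(FPKM + 0.1) where the mean FPKM reached 0.5. Thus a fold change in the siRNA experiment is on the log2(value + pseudocount) scale and understates changes of low genes. Calls used an adjusted p of 0.05 and 1.5-fold (*ZMAT3*) or an unadjusted p of 0.05 (siRNA), as in the study. Each replicate is a separate sample of a clone or transfection, and the spread between these is what the p-values measure. Intervals are at the 95% level. Depth is unknown, so no interval from counts was possible, and the number of libraries limits the precision.

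The 10 genes and the 7 lists were chosen with earlier results of these data known. Named besides the 10 genes are *ZMAT3* and *CDKN1A*, *ERN1*, *EIF2AK3*, *ATF6* and *ATF4*, and in each list and experiment the called gene with the largest change in each direction. The level of the gene targeted by the siRNA pool is not reported here. *DNAJC10* in the siRNA experiment, the cell type markers and the genes with promoter matches were named after their values were seen. Same-numbered libraries deviated together in neither experiment (correlations -0.093 to -0.022 and -0.616), so the replicate number was not used as a block. Alternatives were other pseudocounts, filters, centring, thresholds and variance models, the replicate block, and each library left out. The fits were run on simulated data with independent noise and a known added change, which checks only the code. The simulated libraries lack the correlation of -0.616 seen in the siRNA libraries, so they cannot show how the fits behave with it. Promoter windows came from RefSeq (GRCh38.p14) and were searched with Python 3.11.15. Figures were drawn with matplotlib 3.10.9.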

Additional observations from a re-analysis of the deposited data

How the results depend on the processing

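In the *ZMAT3* experiment, 0 of the 10 genes were called under every alternative that kept the fold threshold, and 7 with an adjusted p of 0.05 alone. Of the values of single genes under the alternatives there, 103 kept direction and side of the threshold, 6 were weaker (all *PDIA4*) and 1 stronger (*DNAJB9*). With the replicate block, 0 genes were called in each experiment and the *ZMAT3* median stayed at -0.032. A crossed pairing of the siRNA libraries, chosen after seeing the data, called 4 of the 10 genes, beside 2410 higher and 3128 lower of all 14274 genes. Leaving out 1 siRNA library gave 0 to 1 called genes, the 1 being *HERPUD1* without siCTRL replicate 1, and medians from -0.028 to 0.060. The siRNA median was -0.092 when the mean had to reach 5 FPKM (9 genes, without *EDEM1*) and 0.051 when libraries were centred on their median gene, a shift of all genes from -0.040 to 0.035. Direction changed when a library was left out for *CALR* (-0.59 to 0.063), *DNAJB9* (-0.75 to 0.13) and *SDF2L1* (-0.49 to 0.57). Without a low-value filter and with the other thresholds, 0 siRNA calls were made. Over all siRNA genes, the adjusted p called 5 as higher and 34 as lower, but 2 and 13 with no variance trend, 4 and 17 when centred, 13 and 52 with the replicate block, 0 and 0 with no filter, and 1 and 1 without siCTRL replicate 1. The unadjusted p called 434 and 650 with the replicate block and 550 and 635 without siCTRL replicate 1. The cause of these shifts was not tested. The shared distribution of the *ZMAT3* table, the single clone, and 2 libraries a group in the siRNA experiment limit what can be read from small differences.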
